A study of Mus musculus with 10 samples.

Results

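Cells kept for 3 days under the combined treatment and sorted into low and high Sca1 were set against each other on 2 of the 10 arrays analysed, 1 for each fraction. The arrays were chosen by their titles, which name the treatment group and the Sca1 gate, and both came from the same slide. Of 20508 named genes, 14059 were well above background on at least 1 of the 2 arrays, the mark the scanning software gives to a spot that stands clear of its background. Of these, 3824 differed by 2-fold or more, with the brighter array clear of background. That fold picked the genes, so their differences within the pair are descriptions. With 1 array a side there was no test and no p-value, and the spread between cultures could not be measured.

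The cells were EML-C1, an established mouse blood progenitor line, and no labels here describe separate cultures or donors. As background, EML lines were immortalised with a dominant-negative retinoic acid receptor, keep growing in the presence of stem cell factor and can be steered into red cell or myeloid development. For the combined treatment (the labels write EPO+GM-CSF/IL-3) the cells received 10 ng/ml erythropoietin, IL-3 at 10 ng/ml and all-trans retinoic acid at 10 µM on day 0. Per the labels' protocols GM-CSF was added only after day 3, so it had not been given to the cells described here. RNA came from cells sorted by Sca1, the surface protein encoded by Ly6a. For comparison the text uses the same fractions under 10 ng/ml EPO (EPO pair), under 10 ng/ml IL-3 and 10 µM retinoic acid (IL-3 pair), untreated cells of day 0, and the arrays of day 6, which name no Sca1 gate. At day 6 the myeloid and combined arms had also received GM-CSF at 10 ng/ml. Each of these groups had 1 array, and the duplicates that the series text mentions were not analysed here.

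Erythropoietin acts through its receptor and STAT5 on red cell progenitors, in which the transcription factors GATA1 and KLF1 switch on globin, haem and membrane genes. IL-3 supports progenitors and myeloid cells, and retinoic acid favours granulocyte maturation, in which C/EBP factors, PU.1 and GFI1 drive granule genes. Sca1 marks mouse stem and progenitor cells and is also carried by some myeloid cells. The comparison shows which programs the high and the low side of the Sca1 gate carried when the signals of both lineages were given together.

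Each level is a log2 signal over the array's own 75th percentile, which was 590.4 intensity units on the Sca1-low array and 687.1 on the Sca1-high array, within the range of 309 to 736 over the 10 arrays. Differences are Sca1-low minus Sca1-high on the log2 scale. The weakest probes well above background lay at -4.48 and -5.00, and 0 spots were saturated. Where the dim side was not well above background, the fold is a lower bound ("at least") against the higher of that limit and the gene's own level. Technical error was small beside most differences described: probes spotted 10 times gave an SD of the difference of 0.11 (median over 230 probes), different probes of a gene an SD of 0.16 (3145 genes), and the scanner's error model a median SE of 0.20 (12450 genes). These errors hold the spread within an array and not between cultures. In bulk RNA, fewer cells of a type and less RNA per cell cannot be told apart.

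Of the 3824 genes, 1990 (14.2% of those measured) were at least 2-fold higher in Sca1-low cells and 1834 (13%) at least 2-fold lower. Lower genes were further apart, with a median size of 2.05 against 1.46 for higher genes. At least 4-fold apart were 559 higher and 944 lower genes, and at least 16-fold apart 101 and 285. The split depended on the scaling. The higher side held 52.0% of the genes here, 36.8% after normexp background correction with quantile normalization, 43.5% with quantile normalization and 39.0% with median centring. The median difference of all measured genes was 0.24 and became 0.06, 0.09 and 0.03 in these settings, so small shifts of a list are read against 0.24. On the dim side 596 higher and 650 lower genes were not well above background. Of the higher genes 314, and of the lower genes 133, were well above background on that 1 array and on no other of the 10. At the edge of the 2-fold rule, Cnppd1 (1.0002) and Maz (1.0004) lay just inside and Nsun2 (0.9998) and Polr1e (0.9995) just outside. On the lower side Tsen34 (-1.0001) and Plekhb1 (-1.0001) lay inside and Sntb2 (-0.9993) and Rab27a (-0.999) outside.

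**Figure D1:**
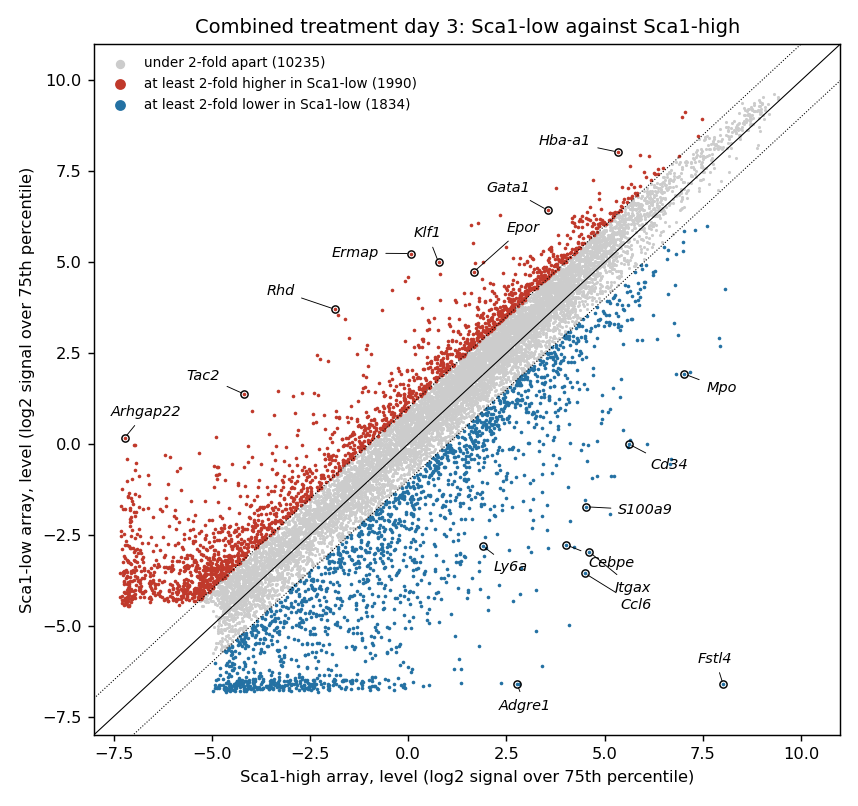
Level of each of the 14059 measured genes on the Sca1-high array (horizontal axis) and the Sca1-low array (vertical axis), both as log2 signal over the array's 75th percentile, 1 array each. Red points are the 1990 genes at least 2-fold higher in Sca1-low cells and blue points the 1834 lower ones, dotted lines mark 2-fold, and red cell genes such as Rhd and Klf1 lie above the diagonal while Cd34, Mpo and Cebpe lie below it.

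The gate itself was visible in the RNA. Ly6a lay at -2.80 in Sca1-low and 1.89 in Sca1-high cells of the combined treatment, at -4.25 (not well above background) and 4.76 under EPO, and at -3.43 and 2.64 under IL-3 and retinoic acid. Untreated cells had 3.02. The 2 combined fractions were thus 25.9-fold apart (difference -4.70, SE 0.22 by the error model), with differences of -9.01 in the EPO pair and -6.06 in the IL-3 pair. Among neighbours of the Ly6 family, Ly6c1 was lower in Sca1-low cells (-0.03 against 4.59), while Ly6c2 had no value of its own here. Ly6d, which marks early lymphoid cells, was higher (-0.05 against -4.09, the latter near background). Over all 10 arrays, the genes whose levels ran most like Ly6a among 12206 compared were the basophil protease gene Mcpt8 (Pearson r = 0.990), the myeloperoxidase gene Mpo (0.985), the cathepsin G gene Ctsg (0.984), the small GTPase gene Cdc42 (0.984) and the receptor kinase gene Tyro3 (0.984). These 10 arrays include both arrays of every pair, and the correlations are descriptions.

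Markers of the blood lineages separated the fractions as follows. All 8 red cell markers were higher in Sca1-low cells and 6 of 7 granulocyte markers lower. The red cell markers summed to a log2 level of 8.84 in Sca1-low and 5.87 in Sca1-high cells, and the granulocyte markers to 3.78 and 8.35. Of 4 mast cell and basophil markers 3 were lower (summed level 2.94 against 7.92). That sum came nearly all from Cpa3 (2.92 against 7.91), Fcer1a was at least 2.11-fold lower, and Ms4a2 was well above background on neither array. Of 4 progenitor markers 2 were lower, Cd34 and Ly6a (3.31 against 6.12), and Kit and Flt3 were under 2-fold apart. Ly6a encodes Sca1, on which the cells were sorted, so its difference is no separate evidence on lineage. Of 5 monocyte markers 3 were lower (1.96 against 3.46) and 1, Ly86, was higher on the only array that measured it. Megakaryocyte markers were under 2-fold apart in all 3 cases (5.02 against 4.89). The 3 lymphoid markers summed to 1.12 and 0.99, mostly from Cd3e (1.06 against 0.88). Elane, the neutrophil elastase gene, was the granulocyte marker under 2-fold apart, at 1.69 and 1.91.

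**Figure D2:**
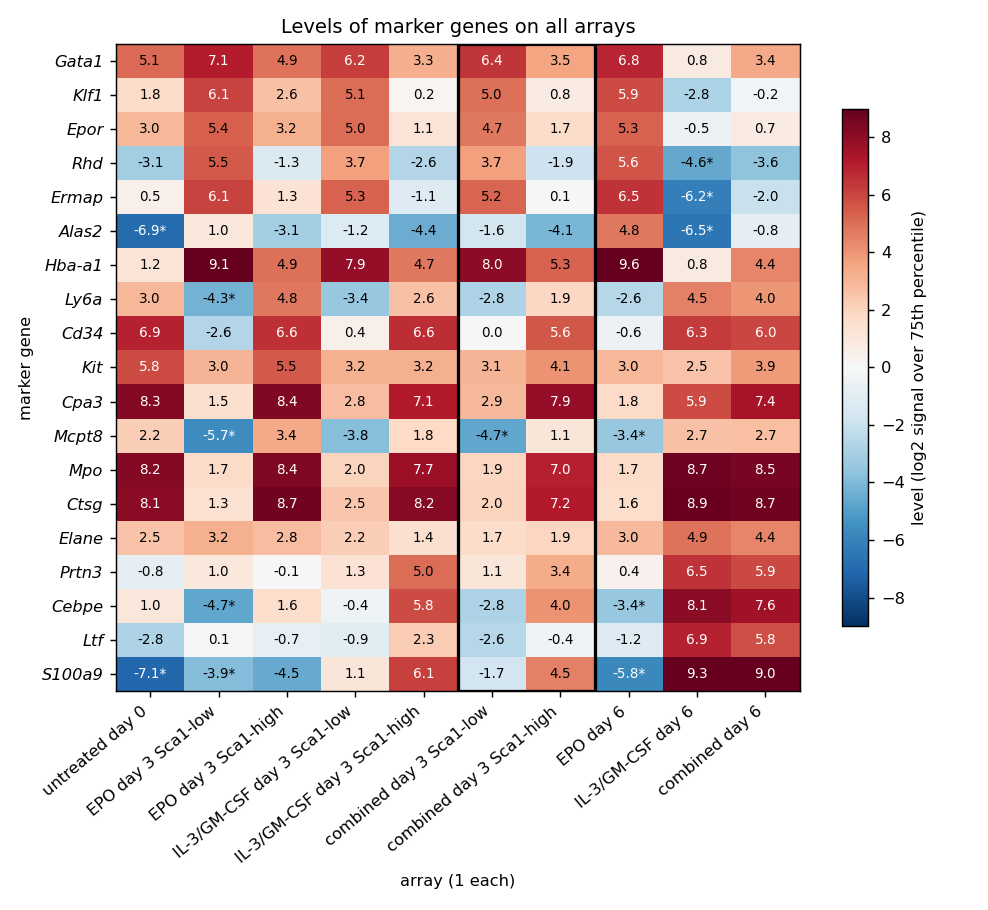
Levels of marker genes (rows) on the 10 arrays (columns, 1 array each), as log2 signal over the array's 75th percentile, with red for high and blue for low levels and a star where the probe was not well above background. The box holds the combined day 3 pair, where the red cell genes at the top, from Gata1 to Hba-a1, are higher in Sca1-low cells and genes such as Cd34, Cpa3, Mpo and S100a9 higher in Sca1-high cells.

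The promoters of 6 genes that stand for both sides are shown because their genes differed by 8-fold or more and they hold motifs of factors known for red cell or myeloid genes. The sequences are RefSeq promoters of 300 bases, from 250 before to 50 after the transcript start, on GRCm38.p6, written 5′ to 3′ on the gene's strand. Capitals mark each match, on either strand, to the motif searched for GATA factors (letters AGATAA), for KLF factors (letters CACCC), for C/EBP factors (letters TTGCNNAA) or for PU.1 (letters GAGGAAG), and no matches overlap in these 6. Rhd, Epor and Trim10 were higher in Sca1-low cells, and Mpo, Ctsg and S100a8 lower.
Rhd, chr4:134864286-134864585, plus strand: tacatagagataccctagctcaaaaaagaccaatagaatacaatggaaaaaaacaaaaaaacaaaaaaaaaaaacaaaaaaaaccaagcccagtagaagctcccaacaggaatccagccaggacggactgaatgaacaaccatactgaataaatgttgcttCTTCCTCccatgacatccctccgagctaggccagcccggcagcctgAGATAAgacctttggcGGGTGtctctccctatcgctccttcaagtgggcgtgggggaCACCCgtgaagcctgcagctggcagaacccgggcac
Epor, chr9:21963527-21963826, minus strand: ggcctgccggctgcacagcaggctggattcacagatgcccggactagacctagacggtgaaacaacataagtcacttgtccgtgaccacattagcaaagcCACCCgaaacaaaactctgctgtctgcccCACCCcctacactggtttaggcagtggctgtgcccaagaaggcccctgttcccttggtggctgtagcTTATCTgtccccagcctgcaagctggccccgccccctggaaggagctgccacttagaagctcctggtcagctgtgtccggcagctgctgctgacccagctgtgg
Trim10, chr17:36869324-36869623, plus strand: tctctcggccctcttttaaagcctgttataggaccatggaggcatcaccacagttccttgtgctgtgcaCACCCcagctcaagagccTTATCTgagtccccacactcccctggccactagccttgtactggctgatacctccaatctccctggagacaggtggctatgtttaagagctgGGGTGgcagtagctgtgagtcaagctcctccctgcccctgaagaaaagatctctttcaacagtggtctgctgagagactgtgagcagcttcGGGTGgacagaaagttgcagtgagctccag
Mpo, chr11:87793534-87793833, plus strand: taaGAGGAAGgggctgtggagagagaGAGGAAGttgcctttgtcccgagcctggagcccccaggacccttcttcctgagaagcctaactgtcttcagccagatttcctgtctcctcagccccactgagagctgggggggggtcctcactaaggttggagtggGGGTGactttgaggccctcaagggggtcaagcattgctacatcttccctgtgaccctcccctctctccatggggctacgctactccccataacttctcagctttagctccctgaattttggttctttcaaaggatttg
Ctsg, chr14:56102525-56102824, minus strand: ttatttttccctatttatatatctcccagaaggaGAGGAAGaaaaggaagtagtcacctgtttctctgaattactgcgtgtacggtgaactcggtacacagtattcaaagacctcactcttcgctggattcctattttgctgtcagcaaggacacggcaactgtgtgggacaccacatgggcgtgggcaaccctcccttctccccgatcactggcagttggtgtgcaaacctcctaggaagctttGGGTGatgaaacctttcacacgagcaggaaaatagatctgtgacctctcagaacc
S100a8, chr3:90668821-90669120, plus strand: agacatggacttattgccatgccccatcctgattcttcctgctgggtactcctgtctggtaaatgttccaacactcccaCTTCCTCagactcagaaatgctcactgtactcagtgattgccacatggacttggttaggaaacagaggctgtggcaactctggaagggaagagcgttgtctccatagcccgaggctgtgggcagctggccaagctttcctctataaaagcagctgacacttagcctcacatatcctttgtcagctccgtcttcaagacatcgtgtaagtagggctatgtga

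The first 3 promoters each hold 1 match to the GATA motif and 2 or 3 to the KLF motif, and the last 3 hold 1 or 2 matches to the PU.1 motif. Neither motif keeps to 1 side: Rhd also holds a PU.1 match, and Mpo and Ctsg each hold 1 KLF match. Across the table these motifs are common, so a match is a description and not a binding site. The GATA motif was found in 11.2% of all 32851 promoters, in 7.87% of the 14172 promoters of measured genes, in 9.99% of those of higher genes and in 9.45% of those of lower genes. Among genes at least 4-fold higher and clear of background on 2 arrays or more, it was found in 14.7% of 326 promoters, against 10.5% of 825 for genes at least 4-fold lower. The PU.1 motif was found in 13.6% of all promoters, in 13.7% of those of measured genes, in 11.04% of those at least 4-fold higher and in 21.9% of those at least 4-fold lower. For the C/EBP motif the shares were 10.8%, 9.12%, 9.20% and 13.5% in the same order, and for the short KLF motif 57.5%, 62.3%, 69.6% and 65.3%. These groups of at least 4-fold were set after the data had been seen, and the shares were not tested.

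Several red cell regulators were on the Sca1-low side. Gata1 lay at 6.43 in Sca1-low and 3.54 in Sca1-high cells (7.38-fold), with 5.11 in untreated cells. Klf1, the globin gene regulator, lay at 4.99 and 0.77 (18.6-fold), with 1.76 in untreated cells. Epor, the receptor for erythropoietin, lay at 4.73 and 1.67 (8.37-fold), with 3.02 in untreated cells. In each case the Sca1-low level was above and the Sca1-high level below that of untreated cells. Trim10, a gene of late red cell maturation, was 29.6-fold higher (0.91 against -3.98). Bcl11a, a repressor of embryonic globin genes, was higher by 2.94, and 2 of its probes gave 2.94 and 2.98. Of 19 measured genes in the list of red cell transcription 8 were higher, 1, Nfe2 (-1.10), lower and 10 under 2-fold apart. Their median was 0.50, against 0.24 for all measured genes.

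Haemoglobin genes were higher in Sca1-low cells. Hba-a1, an adult alpha globin gene, lay at 8.03 in Sca1-low and 5.33 in Sca1-high cells (6.47-fold), against 1.19 in untreated cells. Its near-identical copy can share the probe's signal. The beta globin gene Hbb-bs lay at 4.99 and 1.69 (9.81-fold), against -0.38 in untreated cells. Thus for both globin genes the Sca1-high cells also stood above untreated cells. The embryonic genes Hbb-bh1 (2.47 against -1.30) and Hba-x (-1.49 against -7.06, at least 11.3-fold) were also higher. Of 9 measured haemoglobin genes 8 were higher and 0 lower. Their median of 2.06 lay below that of the EPO pair (3.77) and the IL-3 pair (2.36), a difference that was not tested.

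Haem synthesis genes followed the globins. Alas2, the red cell form of the first enzyme of the pathway, lay at -1.65 and -4.13 (5.57-fold), against 4.75 at day 6 of EPO. Alad (5.00 against 1.90) and Cpox (6.29 against 2.34) encode later enzymes. Cpox was 15.4-fold higher, and its Sca1-high level was close to the 2.06 of untreated cells. Of 17 measured haem genes 13 were higher and 0 lower, with a median of 1.63. Iron genes were mixed, with 4 higher and 3 lower of 14. The iron exporter gene Slc40a1 was at least 17.4-fold higher (-0.88 against -6.85), while the transferrin gene Trf lay at 0.38 and 5.47 and was 34.1-fold lower. The transferrin receptor gene Tfrc was higher by 1.72, but its 3 probes ranged from 0.47 to 1.72.

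Genes of the red cell surface gave some of the largest differences of the pair. Rhd, which encodes the Rh blood group protein, lay at 3.70 in Sca1-low and -1.87 in Sca1-high cells (47.6-fold). Ermap, a red cell adhesion protein gene, lay at 5.24 and 0.06 (36.1-fold), although its 3 probes ranged from 0.72 to 5.17. Gypc, encoding glycophorin C, lay at 1.46 and -3.31 (27.4-fold). Add2, a membrane skeleton gene, lay at 4.24 and -0.41. Ank1, the membrane anchor ankyrin, was at least 15.8-fold higher (-1.02 against -7.17). Of 19 measured membrane genes 13 were higher and 0 lower (median 2.82), and the others were under 2-fold apart. Among 17 genes of red cell enzymes 9 were higher and 0 lower (median 1.19), led by the carbonic anhydrase gene Car1 (4.59 against 0.00). Tspo2 (13.7-fold), Blvrb (9.79-fold) and the pyruvate kinase gene Pklr (at least 9.04-fold, -1.82 against -5.94) followed.

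Other genes at the top of the higher side lay outside the red cell lists. The neuropeptide gene Tac2 lay at 1.37 and -4.17 (46.5-fold), the disulfide isomerase gene Pdia2 at 3.53 and -1.79 (40.01-fold) and the carboxylesterase gene Ces2g at 3.44 and -1.62 (33.3-fold). The amino acid transporter gene Slc38a5 was at least 34.1-fold higher (0.19 against -4.90). Slc26a1 (2.46 against -2.31), a sulfate transporter gene, Cldn13 (4.49 against -0.10) and Chpf (2.32 against -2.24), a chondroitin synthesis gene, followed. Of the 20 highest genes 14 were also at least 2-fold higher in the EPO pair and 14 in the IL-3 pair. The other 6, namely Togaram2, Gsg1l, Map3k12, Gad1, Olfr486 and Arhgap22, were well above background on the Sca1-low array and on no other of the 10, with Arhgap22 at 0.17 against -7.22 on the Sca1-high array. A signal on 1 array has no second measurement here.

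**Figure D3:**
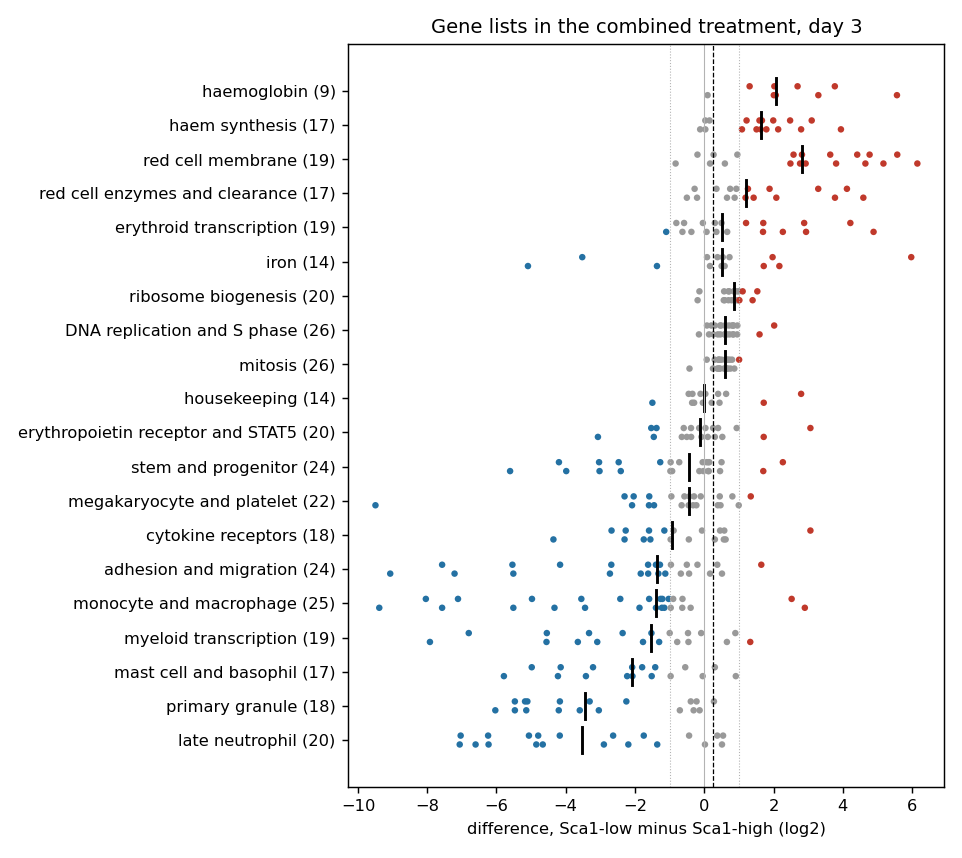
Differences between Sca1-low and Sca1-high cells of the combined treatment (horizontal axis, log2) for the measured members of 20 gene lists (number in parentheses). Each point is 1 gene, red where at least 2-fold higher, blue where at least 2-fold lower and grey otherwise, the black bar is the list's median and the dashed line the median of all measured genes at 0.24; red cell lists lie to the right and granule and myeloid lists to the left.

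Among stem and progenitor genes some were on the Sca1-high side and most were under 2-fold apart. Cd34, a surface protein of blood progenitors, lay at 0.00 in Sca1-low and 5.61 in Sca1-high cells (48.8-fold), against 6.92 in untreated cells. The receptor gene Kit was under 2-fold apart (3.09 against 4.06, untreated 5.85), and Flt3 was low in both (-1.92 and -2.38). The stem cell regulators Erg (-4.08 against 0.11) and Sox4 (-0.31 against 3.67) and the ligand gene Angpt1 (1.51 against 4.55) were lower in Sca1-low cells. Of 24 measured genes of this list 8 were lower, 2 higher and 14 under 2-fold apart (median -0.43, or -0.22 with dim genes at their bounds). Cd93, a surface protein of progenitors and myeloid cells, was among the 20 lowest genes (-2.85 against 4.22, 134-fold).

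Regulators of myeloid cells were lower in Sca1-low cells, with 11 of 19 measured lower and 1 higher (median -1.53). Cebpe, a factor of granulocyte maturation, lay at -2.78 in Sca1-low and 4.02 in Sca1-high cells (112-fold), against 1.04 in untreated cells. Gfi1, a repressor needed for neutrophils, was at least 56.9-fold lower (-6.57 against 1.35). Cebpa was at least 8.52-fold lower (-4.43 against -1.34), and the PU.1 gene Spi1 was 3.41-fold lower (-2.14 against -0.37). Irf8, a factor of monocyte development, was at least 17.3-fold lower. In Sca1-high cells Cebpe and Gfi1 (0.16 in untreated cells) lay above the untreated level.

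Granule genes showed 2 patterns. Mpo lay at 1.92 in Sca1-low and 7.03 in Sca1-high cells (34.5-fold) and at 8.24 in untreated cells. Ctsg lay at 1.98 and 7.16 (36.1-fold), against 8.09 in untreated cells, so for both the Sca1-high level lay below the untreated level. Prtn3, another granule protease gene, lay at 1.11 and 3.36, with both fractions above the untreated -0.84. The lysozyme gene Lyz2 was at least 32.4-fold lower (-4.93 against 0.54). Of 18 measured primary granule genes 12 were lower and 0 higher (median -3.45). Elane, Srgn, Ctsc and Cst7 were among those under 2-fold apart.

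Genes of maturing neutrophils were already present in Sca1-high cells. S100a9, a calprotectin subunit, lay at 4.51 in Sca1-high and -1.73 in Sca1-low cells (75.7-fold), and it was not well above background in untreated cells (-7.06). Its partner S100a8 lay at 2.04 in Sca1-high and -4.57 in Sca1-low cells (at least 91.6-fold). The stefin gene Stfa1, one of several close copies, lay at 5.14 in Sca1-high and -1.92 in Sca1-low cells (134-fold). Mmp9, a gelatinase gene, was at least 29.0-fold lower in Sca1-low cells. Ltf, the lactoferrin gene, lay at -0.41 in Sca1-high and -2.60 in Sca1-low cells, and both values stood below the 6.91 of IL-3/GM-CSF at day 6. Of 20 measured late neutrophil genes 15 were lower and 0 higher (median -3.54, or -2.39 with dim genes at their bounds). In the IL-3 pair the same genes had a median of -4.20, with 16 lower. In the EPO pair 7 of the 20 were well above background on both arrays and 5 on neither, and the median of 0.36 there rests largely on signals near background. The 7 had a median of 0.30 in the EPO pair and -1.36 in the combined pair. On the S100 list 7 of 10 were lower (median -2.88), with -2.67 in the IL-3 pair. In the EPO pair the median was 0.31 over all 10 and -0.62 over the 7 well above background on both EPO arrays. S100a4 was lower in all 3 pairs (-7.21, -8.57 under EPO and -6.06 under IL-3). None of these differences between pairs was tested.

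Monocyte and macrophage genes were lower in Sca1-low cells for 18 of 25 measured and higher for 2 (median -1.40). The chemokine gene Ccl6 lay at -3.55 in Sca1-low and 4.49 in Sca1-high cells (263-fold), and Ccl9 at -0.42 and 6.69 (138-fold). The integrin gene Itgax lay at -2.97 and 4.60 (190.1-fold), and the macrophage marker gene Adgre1 was at least 153-fold lower (-6.61 against 2.77). Csf1r, the receptor for macrophage colony-stimulating factor, was lower by 1.15, but its 3 probes ranged from -2.11 to 0.46. The adhesion list had 15 of 24 lower and 1 higher (median -1.36). The related surface receptor genes Cd200r1, Cd200r3 and Cd200r4 were among the 20 lowest, as were Adgrg5, Tmem273, Tubb6 and Thsd1. Of these 20 genes 12 were also at least 2-fold lower in the EPO pair and 18 in the IL-3 pair. Fstl4, a follistatin-like gene, had the largest fold of the lower genes (at least 5767-fold, 8.01 in Sca1-high cells) and was well above background on that array and on no other.

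Mast cell and basophil genes also stood on the Sca1-high side, with 12 of 17 lower and 0 higher (median -2.07). Cpa3, the mast cell carboxypeptidase gene, lay at 2.92 in Sca1-low and 7.91 in Sca1-high cells (31.6-fold), close to 8.28 in untreated cells. Mcpt8 was at least 47.9-fold lower. The granzyme gene Gzmb lay at 2.70 and 7.93 (37.4-fold), and with it 10 of 16 genes on the T and NK list were lower and 0 higher (median -1.73). Ptcra was well above background on the Sca1-high array (-0.11) and on no other of the 10. Ppbp, a platelet chemokine gene, was at least 235.5-fold lower (-6.10 against 3.40), but only 7 of 22 megakaryocyte genes were lower, with 1 higher and a median of -0.44. The B lymphoid list went the other way (5 higher and 2 lower of 10, median 0.80, or 0.33 with bounds). Of its higher members Ms4a1 (-3.82) and Igll1 (-4.47) lay near background on the Sca1-low array, while the surrogate light chain gene Vpreb2 (-0.88) did not.

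Receptor and response genes were mixed. Of 18 cytokine receptor genes 8 were lower and 1, Epor, higher (median -0.93). The IL-2 receptor gene Il2ra was at least 11.6-fold lower (-5.30 against -0.94). On the list of EPOR and STAT5 genes 2 were higher and 4 lower of 20 (median -0.11). Id1, an inhibitor of differentiation factors, lay at -1.08 and 2.00, with -3.62 in untreated cells, and the STAT5 target Pim1 at 0.89 and 2.42. In the EPO pair these 2 genes lay the other way round (Id1 0.59, Pim1 0.73, under 2-fold), and in the IL-3 pair at -4.47 and -2.03. Of 16 retinoic acid genes 6 were lower and 4 higher (median -0.45). The retinaldehyde reductase gene Dhrs3 lay at 1.29 and 5.39, below and above the untreated 3.31. Interferon genes were lower for 9 of 19 and higher for 1 (median -0.35), with Usp18 at -3.03 and 1.31 and Oas2 at -3.57 and 0.41. Antigen presentation genes were lower for 10 of 17 and higher for 2 (median -1.14), among them B2m (5.08 against 6.58).

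Growth genes differed less. Of 26 replication genes 2 were higher, Ccne1 (5.04 against 3.02) and Cdc6 (2.51 against 0.91), and 0 lower, with a median of 0.61. Of 26 mitosis genes 1 was higher, Mad2l1 at 1.01, with a median of 0.59, and of 20 ribosome biogenesis genes 4 were higher with a median of 0.86. These medians lie above the 0.24 of all measured genes, and under the 3 other scalings they were 0.30 to 0.40 for replication, 0.28 to 0.37 for mitosis and 0.47 to 0.64 for ribosome biogenesis. In the G1 list the cyclin gene Ccnd1 was lower (1.36 against 2.88), and the inhibitor gene Cdkn1c (-2.43 against -4.59) and E2f2 (4.46 against 2.77) were higher. The asparagine synthetase gene Asns was higher (7.92 against 6.13) on a stress list with 3 of 21 higher and 0 lower. Sterol genes had 1 of 21 higher, and glycolysis genes 1 higher and 3 lower of 21, with the hexokinase genes Hk2 and Hk3 lower by 1.85 and 6.19. On the p53 list 5 of 20 were lower and 2 higher. The medians of the G1 (0.08), stress (0.20), sterol (0.19), glycolysis (0.03) and p53 (-0.03) lists changed sign in at least 1 other setting. Of 14 housekeeping genes 2 were higher, among them Tfrc, and 1, B2m, lower, with a median of -0.01.

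The genes were also set against untreated cells. Because the 2-fold rule used these same arrays, many had to differ from the untreated level on at least 1 side, and the counts are descriptions. Of the 1990 higher genes, 1103 (55.4%) were at least 2-fold above the untreated level in Sca1-low cells and not 2-fold below it in Sca1-high cells. Another 228 (11.5%) were 2-fold below it in Sca1-high cells and not 2-fold above it in Sca1-low cells, 58 did both and 601 neither. Of 1834 lower genes, 867 (47.3%) were at least 2-fold below the untreated level in Sca1-low cells and not 2-fold above it in Sca1-high cells. Cd34 was 1 of these, with Sca1-high cells (5.61) also below the untreated 6.92. A further 563 (30.7%) were at least 2-fold above the untreated level in Sca1-high cells and not 2-fold below it in Sca1-low cells. Both held for 200, as for Cebpe, and neither for 204. In these classes the other fraction could also lie on the same side of untreated cells. Levels were taken as measured, so the counts include the 314 higher and 133 lower genes well above background on no other array. The matching shares over all measured genes were not computed, so the counts do not show which side moved more than usual. The untreated array came from another scan than the pair.

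The same genes were next read in the EPO and IL-3 pairs, which share no array with the combined pair. In the EPO pair 14.5% of 13384 measured genes were at least 2-fold higher and 16.5% lower, and in the IL-3 pair 10.5% of 14084 were higher and 15.4% lower. Of the 1990 genes higher in the combined pair, 665 (33.4%) were also at least 2-fold higher in the EPO pair and 726 (36.5%) in the IL-3 pair. Of the 1834 lower genes, 1088 (59.3%) were also lower in the EPO pair and 1316 (71.8%) in the IL-3 pair. As shares of the other lists these are 34.3% and 49.3% of the EPO pair's higher and lower genes, and 49.3% and 60.6% of the IL-3 pair's. In both other pairs at once 385 higher and 917 lower genes were found, and in neither 984 and 347. The last 2 counts include the 314 and 133 genes well above background on no other array, which could not be called elsewhere. The share of all measured genes called in neither pair was not computed. With genes clear of background on 2 arrays or more, a filter chosen after seeing the data, the shares were 39.7%, 43.3%, 64.0% and 77.4%. Under that filter 670 higher and 214 lower genes were found in neither other pair.

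Across the 11388 genes well above background on all 4 arrays, the combined difference ran with that of the EPO pair with Pearson r = 0.72 and Spearman rho = 0.62, and across 11907 genes with that of the IL-3 pair with r = 0.86 and rho = 0.71. Genes are not independent replicates, and the correlations share the level of each gene's probe. The slopes were 0.64 and 0.84, and Ly6a itself differed by -4.70 in the combined pair, -9.01 under EPO (-8.49 against the background limit, since the Sca1-low signal was not well above background) and -6.06 under IL-3. Whether the gate or the treatment accounts for this was not tested. Gata1 differed by 2.88 in the combined pair, 2.14 under EPO and 2.94 under IL-3, and Klf1 by 4.22, 3.46 and 4.85.

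**Figure D4:**
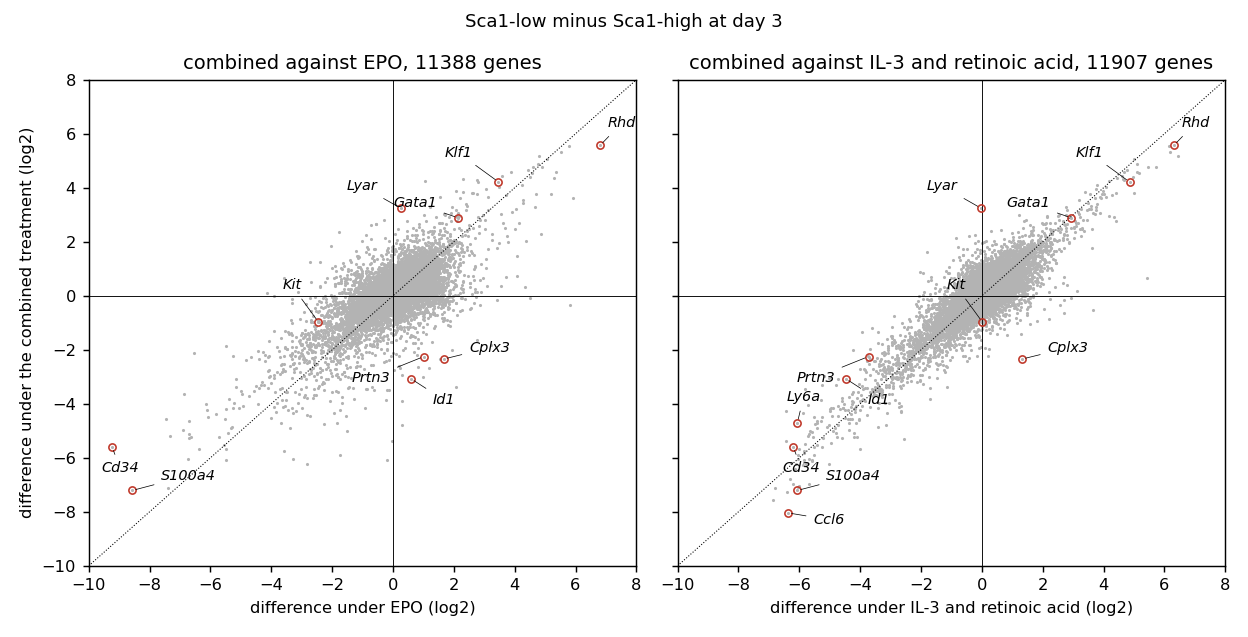
Difference between Sca1-low and Sca1-high cells under the combined treatment (vertical axis, log2) against that under EPO (left panel, horizontal axis, 11388 genes) and under IL-3 and retinoic acid (right panel, 11907 genes), for genes well above background on all 4 arrays of a panel. Points near the dotted diagonal differ alike, as Klf1 and Gata1 do in both panels, while Id1 and Prtn3 lie below 0 on both axes under IL-3 and on opposite sides of 0 under EPO, and Ly6a is missing from the left panel because it was not well above background in Sca1-low cells under EPO.

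Taken fraction by fraction, over 11300 genes well above background on all 6 day 3 arrays, the combined Sca1-low array differed from the IL-3 Sca1-low array by a median absolute difference of 0.13, with 267 genes (2.36%) at least 2-fold apart. From the EPO Sca1-low array it differed by 0.53, with 2015 genes (17.8%). For the Sca1-high arrays the corresponding values were 0.35 with 568 genes (5.03%) and 0.43 with 1425 genes (12.6%). So the combined Sca1-low array lay nearer to the IL-3 array than to the EPO array, also in red cell genes such as Rhd (3.70, with 3.71 under IL-3 and 5.49 under EPO) and Alas2 (-1.65, -1.21 and 0.95). The EPO Sca1-low array lay as far from the IL-3 Sca1-low array (0.53, 2040 genes, 18.1%). It was also the dimmest of the 10, with a 75th percentile of 308.7, against 590.4 (combined) and 637.2 (IL-3). Whether its dimness bears on these distances was not tested. In Sca1-high cells, S100a9 (4.51) lay nearer to the IL-3 array (6.13) than to the EPO array (-4.52), while Kit (4.06) lay between the IL-3 and EPO arrays. The EPO and IL-3 Sca1-high arrays differed from each other by a median of 0.25, less than either did from the combined array. By the count of genes at least 2-fold apart this did not hold. They had 979 such genes (8.66%), more than the 568 between the combined and IL-3 arrays. The EPO and IL-3 arrays were scanned together and apart from the combined pair. These distances have no replicate error and were not tested.

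By measured levels 9 of the higher genes and 1 of the lower genes lay at least 2-fold the opposite way in both other pairs. For the higher genes this rests mostly on Sca1-low signals that were not well above background in those pairs. Against the background limit 2 of the 9 stayed at least 2-fold opposite in both, the diamine oxidase gene Aoc1 (-0.80 against -3.34) and the zinc transporter gene Slc30a4 (-0.34 against -1.84). The others include Spata22, Lima1, Sall3 and Ikbke. The lower gene, Cplx3 (-2.61 against -0.27), was well above background on all 4 arrays of the other pairs and differed by 1.67 under EPO and 1.32 under IL-3. Of 3101 genes under 1.4-fold apart in both other pairs and well above background on all 6 day 3 arrays, 50 were at least 2-fold higher in the combined pair and 8 lower. The largest differences were those of the nucleolar gene Lyar (0.82 against -2.42), Ajap1 (-1.53 against -3.94), the splicing factor gene Zcrb1 (4.67 against 2.72), Foxi1 and Hopx on the higher side. On the lower side they were those of the adaptor gene Ap2b1 (-0.49 against 1.47), Pou2f2, Plekha5, Ifi30, Ccdc88a, Cyld and Itpkb. In 10 of these 15 named genes the Sca1-low level lay within the range of the other 8 arrays and the Sca1-high level outside it. Zcrb1, for example, lay between 4.61 and 4.99 on the other arrays. Aldh7a1, Gabrg3 and Pifo complete the named set, and Gabrg3 became -1.14 with the mean of its probes.

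The comparisons at day 6 used no array of the pair. They set 2 treatments, or a treatment and untreated cells, against each other on arrays that name no Sca1 gate. So they describe the same genes and do not repeat the Sca1 comparison. EPO day 6 minus IL-3/GM-CSF day 6 was at least 2-fold higher for 18.7% and lower for 19.9% of 12984 measured genes. Of the genes higher in Sca1-low cells, 923 (46.4%) were higher in that comparison and 79 lower. Of the lower genes, 1239 (67.6%) were lower and 34 higher. Klf1 differed by 8.71 there and Mpo by -7.02. Against the background limit Rhd, not well above background under IL-3/GM-CSF, was higher by at least 9.84, and S100a9, not well above background under EPO, differed by -12.74 or more in size. The day 6 IL-3/GM-CSF array shared a scan with the pair, and the day 6 EPO array came from another scan. This comparison of treatments is thus also one between scans.

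The combined treatment at day 6, set against untreated cells, was at least 2-fold higher for 9.27% and lower for 7.08% of 13944 measured genes. Of the genes lower in Sca1-low cells, 527 (28.7%) were higher than in untreated cells at day 6 and 206 lower. Of the genes higher in Sca1-low cells, 109 (5.48%) were higher and 183 (9.20%) lower. Cebpe stood at 7.58 at day 6 of the combined treatment and S100a9 at 9.05, both above the 4.02 and 4.51 of Sca1-high cells at day 3. Klf1 (-0.22) and Epor (0.71) were below both day 3 fractions, and Hba-a1 (4.40) was below them but above untreated cells. Alas2 (-0.79) was above both day 3 fractions.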

How the data were processed

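Per the labels' protocols, RNA of sorted EML-C1 cells was labelled with Cy3 and hybridised to 1-colour arrays. The authors deposited processed spot intensity values from Agilent Feature Extraction 11.0.1.1, per the submitters' processing notes, with protocol GE1_1100_Jul11 per the file headers. The deposited value table held the same intensity values. The number of arrays, 1 per group, limits the precision.

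Control spots were left out and spots marked as outliers (211 and 306 on the 2 arrays) set to missing. The log2 intensity computed from the deposited values was set against each array's 75th percentile over 59305 spots. Repeat spots were averaged, which gave 55681 probes. A RefSeq table named 27235 of them, and the brightest probe stood for a gene. Promoters were matched for 152 of 201 named genes.

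Members, gene lists and the naming rule were chosen with earlier results of these data known. Named were the 20 highest and lowest genes, the 4 furthest members of each list, lineage markers, 6 genes opposite to both other pairs, 8 genes under 1.4-fold apart in them, the 2 genes on each side of the edges of the 2-fold rule and the 5 most like Ly6a. Genes with clone-type symbols were not named. Alternatives were normexp (offset 50, on median signals) with quantile normalization, quantile normalization, median centring, the value table, filters on dim probes, all probes, outlier spots kept and differences against the background limit. Software was Python 3.11.15, pandas 2.3.3 and, for normexp, limma 3.58.1 in R 4.3.3. The code of the fold rule was checked on simulated data with changes well past 2-fold. This does not measure how reliable the calls are on these arrays.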

Additional observations from a re-analysis of the deposited data

Results flagged for a closer look

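Medians of 3 lists had opposite signs in the combined and the EPO pair: -3.54 and 0.3623 for late neutrophil genes, -2.88 and 0.3110 for S100 genes, and -0.45 and 0.3139 for retinoic acid genes. Many of these genes lay near background in the EPO pair. Over genes well above background on both EPO arrays the medians were -1.36 and 0.30 (7 late neutrophil genes), -1.49 and -0.62 (7 S100 genes) and -0.01 and 0.46 (13 retinoic acid genes), so the S100 genes no longer differed in sign. In each case the difference between pairs was not tested. By measured levels 9 single genes were at least 2-fold higher in the combined pair and lower in both others, but 2 of them stayed so against the background limit. Another 1 was lower in the combined pair and higher in both others, also against the limit. These were not tested either.

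Among probes without a gene name, which the comparisons above do not use, 14745 were well above background on at least 1 array of the pair. Of these, 2860 were at least 2-fold higher in Sca1-low cells and 1513 lower, and 2032 and 1184 of them were well above background on at least 2 arrays.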

How the results depend on the processing

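No paired analysis was possible because each group had 1 array and the groups shared a single replicate number. The deposited value table gave the same numbers. The count of higher genes was 840 after normexp with quantile normalization, and that of lower genes 1184 with genes well above background on both arrays.

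The share of higher genes also higher in the EPO pair was 40.7% after normexp with quantile normalization, 30.3% with quantile normalization, 31.4% with median centring, 40.5% with both arrays above background, 31.2% without a filter and 39.7% with at least 2 arrays, the last chosen after seeing the data. For the IL-3 pair these were 52.98%, 39.4%, 38.7%, 44.0%, 42.9% and 43.3%, and 38.8% against the background limit. The share of lower genes also lower in the EPO pair was 63.6% after normexp with quantile normalization, 56.7% without a filter and 64.0% with at least 2 arrays. For the IL-3 pair it was 67.1% with quantile normalization, 68.7% with median centring, 75.6% with both arrays above background, 67.9% without a filter, 74.7% against the limit and 77.4% with at least 2 arrays. The filters change which genes are counted, and for the scalings the cause was not tested.

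The 11 list medians that changed sign were those of G1 regulators (-0.31, -0.20 and -0.13 after normexp with quantile normalization, quantile normalization and median centring), glycolysis (-0.16, -0.26 and -0.19, and -0.0381 with the mean of probes), sterol synthesis (-0.0033 after normexp with quantile normalization and -0.0251 with median centring), amino acid and stress (-0.0140 with median centring) and p53 genes (0.24 with both arrays above background). Among named genes Gabrg3 became -1.14 with the mean of probes. Of the list medians under the alternatives 227 moved by less than 1 SD and 92 by more without changing sign. Signal over background limits genes near the limits of -4.48 and -5.00.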
